A study of Mus musculus with 8 samples.

Results

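The type II hair shaft keratins are the basic keratins of the growing hair: Krt81, Krt82, Krt83, Krt84, Krt85 and Krt86. These 6 genes were chosen by name as the basic keratins of the hair matrix, cuticle and cortex. Probes were matched to them by RefSeq accession. Krt81, Krt82, Krt84 and Krt86 each had 1 probe, and all 4 probes passed the filter on dim probes, so that 4 of the 14774 genes tested are members. No probe was matched to Krt83 or Krt85, which are not analysed here. Krt87, a further hair keratin gene of the same gene cluster, had 1 probe and is described beside them.

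Keratin filaments form from pairs of an acidic (type I) and a basic (type II) chain, and the hair shaft has its own set of both. These chains are made by cells leaving the matrix of a growing follicle, are packed with keratin-associated proteins and are cross-linked through disulfide bonds, so their transcripts mark follicles in which a shaft is being built. Krt81, Krt83 and Krt86 are keratins of the cortex, the body of the shaft, and in people carry the mutations of monilethrix, a disorder of beaded and fragile hair. Krt82 is a keratin of the hair cuticle, the layer of flat cells around the cortex. Krt84 is best known from the filiform papillae of the tongue, and Krt85 from the matrix, where shaft keratin synthesis begins.

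Skin RNA was measured on 8 Agilent 1-colour arrays, 1 array per sample, to ask how transcripts differ where mutant mice have lost hair. The mice were C57BL/6N, and the groups were skin of Cchcr1 mutants with hair loss (n = 2), skin of Cchcr1 mutants labelled normal (n = 4) and wild type skin labelled normal (n = 2). Cchcr1 encodes a coiled-coil protein, and the labels give neither the nature of its mutation nor the age or sex of the mice. Titles assign 1 hair loss and 2 normal skin samples to Mutant097, the same to Mutant113, and both wild type samples to Wild001. Titles also carry a letter, which is S on both hair loss samples. The normal samples of each number have an A and a B. Letter and hair loss therefore cannot be told apart, and A was not compared with B. Whether a title number stands for 1 animal is not stated in the labels, so p-values measure only the spread between these samples, which may be technical.

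The 4 measured members lie in 1 stretch of the type II keratin gene cluster, with Krt83 among them, and promoter sequence was at hand for Krt82 and Krt84. Both sequences are shown because these neighbours were not well above background in wild type skin and were high in most mutant samples. They are the 250 bases before the RefSeq start of each gene, 5′ to 3′ in the direction of transcription, on the minus strand of mouse GRCm38.p6 at chr15:101550660-101550909 for Krt82 and chr15:101532821-101533070 for Krt84. Capitals mark the longest run of bases that the 2 sequences have in common on the same strand, found by comparing them.
Krt82: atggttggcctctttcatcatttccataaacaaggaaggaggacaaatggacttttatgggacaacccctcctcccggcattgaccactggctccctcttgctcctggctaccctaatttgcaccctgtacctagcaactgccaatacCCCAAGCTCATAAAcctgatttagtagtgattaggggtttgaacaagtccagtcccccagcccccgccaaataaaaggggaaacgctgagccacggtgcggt
Krt84: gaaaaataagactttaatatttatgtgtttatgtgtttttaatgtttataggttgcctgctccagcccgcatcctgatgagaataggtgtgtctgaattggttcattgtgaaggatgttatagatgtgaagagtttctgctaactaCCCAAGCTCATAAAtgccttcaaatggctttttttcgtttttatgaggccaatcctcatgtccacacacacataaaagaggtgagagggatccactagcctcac

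The shared run, CCCAAGCTCATAAA, is 14 bases long. It covers bases 102 to 89 before the start in Krt82 and bases 104 to 91 before the start in Krt84, so that its position differs by 2 bases. Searched on both strands of all 32851 promoters of the table (27025 genes), these letters were found in 2, or 0.00609%, and those were Krt82 and Krt84. Its last 10 bases, AGCTCATAAA, were in 23 promoters (0.07%) on either strand, among them the type I hair keratin Krt33b, where they are on the reverse strand. Its last 8 bases, CTCATAAA, were in 266 promoters (0.81%) on either strand, among them 3 of the 7 type I hair shaft keratins with a promoter in the table. On the strand that holds them in Krt82 and Krt84 they were in 126 promoters (0.384%) and in 0 of those 7. These shorter motifs are parts of the run and overlap it. The TATA box letters TATAAA were in 12.4% of promoters on either strand, in Krt84 on the reverse strand only, and not in the Krt82 window. Only these exact letters were searched, so near variants of a TATA box were not counted. The core letters bound by Lef1 and Tcf proteins, CTTTGA, were in 13.8% of promoters, in 5 of the 7 type I hair shaft keratins and in neither the Krt82 nor the Krt84 window. GC content was 51.2% in the Krt82 window and 38.8% in the Krt84 window, against a median of 52.4% over all promoters. A match of letters is a description of the sequence and does not show that a protein binds there.

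The 75th percentile of intensity ran from 83.1 to 211 over the 8 arrays, with the lowest value in wild type replicate 1, and 25424 to 30205 probes per array were well above background. All arrays were on 1 slide from 1 scan. All 3 Mutant097 samples and the Mutant113 hair loss sample were in slide row 1, and the Mutant113 normal skin was in row 2 with the wild type. The Cchcr1 probe passed the background mark on every array, with log2 levels of -0.07 to -0.03 in the wild type, -0.04 to 0.32 in mutant normal skin and -0.01 to 0.49 in hair loss skin, and the genotypes overlapped. Of 8 epidermal marker genes, 7 were tested and all 7 were well above background on every array, and the same held for all 8 skeletal muscle markers, so transcripts of both tissues were present throughout.

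All levels below are log2 values relative to the 75th percentile of the same array, at which the level is 0. The level of 1 gene cannot be set against that of another, since each comes from a different probe. Of the cortex keratins, Krt81 exceeded background on each of the 8 arrays. Its level was -0.54 and -0.49 in the wild type samples, 2.18 and 2.52 in normal skin of Mutant097, 5.71 and 5.29 in normal skin of Mutant113, 6.78 in hair loss skin of Mutant097 and 5.03 in hair loss skin of Mutant113. All mutant samples were above the wild type, the normal skin of Mutant097 formed a step between, and hair loss and normal skin of the mutants overlapped. Krt86 was at 4.57 and 5.43 in normal skin of Mutant097, 8.29 and 7.81 in that of Mutant113, and 9.03 and 7.64 in hair loss skin of Mutant097 and Mutant113. In the wild type it was at -1.05 and -3.44, and only the first of these was well above background. The order of the 6 mutant samples was the same for both cortex keratins. These genes are close copies, and each probe may detect more than 1 transcript.

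Krt82, the cuticle keratin, was not well above background in either wild type sample, where its values were -4.57 and -4.28. It was at 1.46 and 1.18 in normal skin of Mutant097, 2.69 and 2.22 in normal skin of Mutant113, 4.12 in hair loss skin of Mutant097 and 2.00 in hair loss skin of Mutant113. Its samples of normal skin lay closest together of the 4 members, with an SD of 0.69. Krt84 had the widest spread, with an SD of 3.34 in mutant normal skin. It was at -2.94 and -0.42 in normal skin of Mutant097, 4.52 and 2.88 in that of Mutant113, and 3.76 and 2.89 in hair loss skin of Mutant097 and Mutant113. Wild type values of Krt84 were -3.19 and -4.14, not well above background, so replicate 1 of the Mutant097 normal skin came close to them. Krt87 was at -5.32 and -6.07 in the wild type, also not well above background, at 0.95 to 4.60 in mutant normal skin and at 5.59 and 3.83 in hair loss skin.

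**Figure D1:**
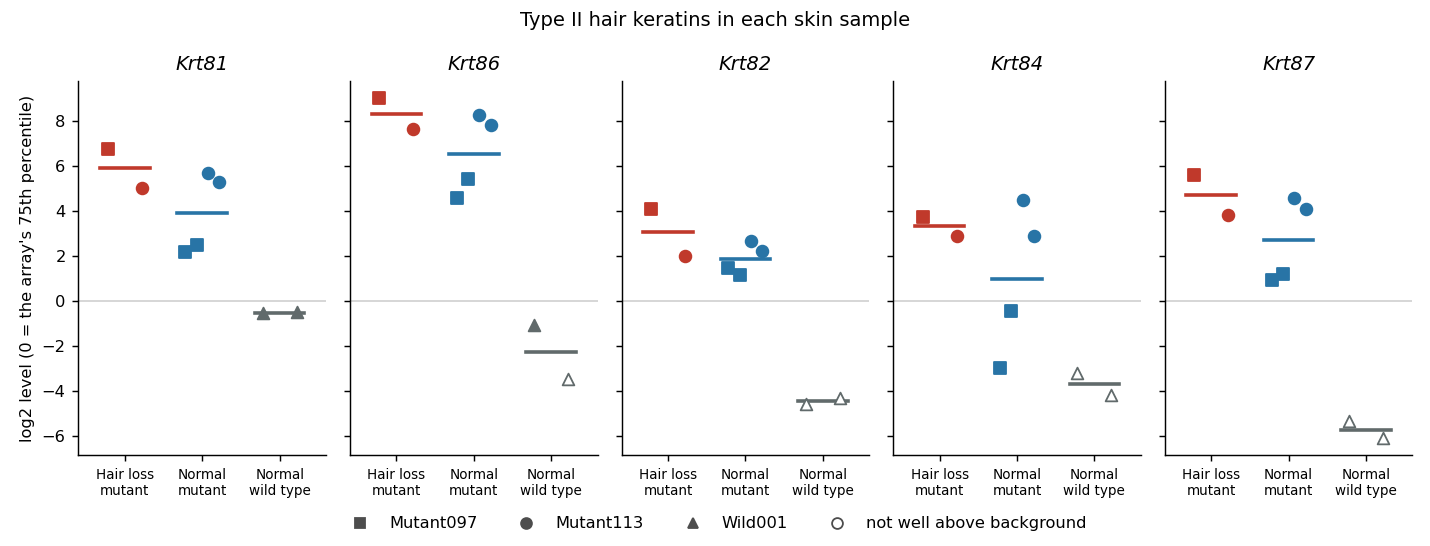
Log2 level of 5 type II hair keratins in each skin sample (vertical axis, 0 = the array's 75th percentile) by group, with lines at group means, squares for Mutant097, circles for Mutant113, triangles for Wild001 and open symbols for probes not well above background. In each panel the wild type samples are lowest, and the normal skin of Mutant097 lies below that of Mutant113, for Krt81 at 2.18 and 2.52 against 5.71 and 5.29.

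Normal skin of the mutants was first set against wild type skin, a comparison that leaves out hair loss skin. Both wild type samples shared a title number that no mutant sample had, so mutation and number changed together here. Their separate parts in the differences were not tested. Krt82 and Krt86 rose in mutant normal skin, and Krt81 and Krt84 were higher without passing the test. The groups did not overlap for any of the 4 genes, but groups this small can separate without a difference. The share of all probes without overlap was not counted. Over all 30417 probes tested, 211 (0.694%) were called at a limma adjusted p under 0.05, and 175 (0.575%) were called higher, against 2 of the 4 members. Krt82 and Krt84 passed the filter on dim probes through mutant arrays alone. The members were also chosen with earlier results of these data known. Setting their calls beside the share of all probes is therefore not a test of the members, here or below. Krt86 averaged 6.53 ± 1.81 (SD, n = 4) against -2.25 ± 1.69 (SD, n = 2), a log2 difference of 8.77 (SE 1.16, limma adjusted p = 0.0247), with 1 of 2 wild type samples not well above background. That difference was 6.85 with normexp background correction. Krt82 averaged 1.89 ± 0.69 (SD, n = 4) against -4.43 ± 0.20 (SD, n = 2), for a log2 difference of 6.31 (SE 0.62, limma adjusted p = 0.0109). Because Krt82 was at background in the wild type, the measured fold is a bound: it was at least 38.4-fold higher. Such bounds set the mean of the bright group against the lowest value that was well above background on each dim array, or the probe's own value if that was higher.

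For Krt81, the mean of 3.93 ± 1.83 (SD, n = 4) against -0.51 ± 0.03 (SD, n = 2) gave a difference of 4.44 (SE 1.07, limma adjusted p = 0.127), or 21.7-fold. Krt84 averaged 1.01 ± 3.34 (SD, n = 4) against -3.66 ± 0.67 (SD, n = 2), for a log2 difference of 4.67 (SE 1.83, limma adjusted p = 0.256), and was at least 20.9-fold higher. That bound was 9.28-fold without Mutant113 replicate 3, 13.6-fold without replicate 4 and 52-fold without Mutant097 replicate 1, and with normexp it was 5.44-fold. Krt87 rose with the called members, by 8.41 (SE 1.12, limma adjusted p = 0.0249) and at least 68.2-fold, but with normexp its difference was 4.17 and did not pass (limma adjusted p = 0.0979). In bulk skin, fewer cells making a hair keratin and less RNA per such cell cannot be told apart, here and in all comparisons below. Both calls were lost without wild type replicate 1 (limma adjusted p = 0.0957 for Krt82 and 0.104 for Krt86) or replicate 2 (0.0845 and 0.101). That of Krt86 was also lost without normal skin replicate 4 of Mutant113 (0.0644). With the samples of a number averaged into 1 the adjusted p was 0.470 for both. With normexp background correction the Krt82 difference was 2.84, still called, and its bound was 7.18-fold.

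Hair loss skin of the mutants was also set against the wild type. This comparison shares the wild type samples with the one before and the hair loss samples with the one below. Both hair loss samples lay in slide row 1 and the wild type in row 2. Hair loss, genotype, title number and row therefore cannot be told apart here. Krt82 and Krt86 rose, and Krt81 narrowly missed the threshold. Again no member overlapped between the groups, but groups of 2 samples can separate without a difference. The share of all probes without overlap was not counted here either. Of all probes, 432 (1.42%) were called and 302 (0.993%) were called higher. Krt86 averaged 8.34 ± 0.99 (SD, n = 2) and differed from the wild type by 10.58 (SE 1.34, limma adjusted p = 0.0171), with 1 of 2 wild type samples not well above background, and by 8.70 with normexp. Krt82 averaged 3.06 ± 1.5 (SD, n = 2), for a log2 difference of 7.49 (SE 0.71, limma adjusted p = 0.00893) and at least 86.5-fold. Krt81 averaged 5.91 ± 1.24 (SD, n = 2), which was 6.42 above the wild type (SE 1.24, limma adjusted p = 0.0553) or 85.6-fold. Krt84 averaged 3.32 ± 0.61 (SD, n = 2), for a log2 difference of 6.98 (SE 2.12, limma adjusted p = 0.110), and was at least 104-fold higher, or 16.7-fold with normexp. The calls for Krt82 and Krt86 were lost without either wild type sample and without the Mutant097 hair loss sample, at adjusted p from 0.0609 to 0.132. The bound for Krt82 was 41.5-fold without the Mutant097 hair loss sample, 180-fold without that of Mutant113 and 15.3-fold with normexp. With the samples of a number averaged into 1, the limma adjusted p was 0.179 for Krt82 and 0.177 for Krt86.

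The central comparison is hair loss against normal skin among the mutants. No member passed the test, and hair loss and normal skin overlapped for all 4. Of 30417 probes, 0 were called by limma (0%), and 1582 (5.20%) had an unadjusted p under 0.05, with the smallest adjusted p at 0.710. The mean differences were positive for every member: 1.98 for Krt81 (95% interval -0.51 to 4.47, limma adjusted p = 0.991), 1.17 for Krt82 (-0.26 to 2.61, 0.990), 2.31 for Krt84 (-1.94 to 6.56, 0.999) and 1.81 for Krt86 (-0.89 to 4.50, 0.999). At this number of samples the intervals span from lower levels in hair loss skin, down to -1.94 for Krt84, to levels many times higher. With slide row as a block, which sets both hair loss samples against normal skin of Mutant097 only, the differences were 3.55 for Krt81 (SE 0.53), 1.74 for Krt82 (SE 0.63), 5.0 for Krt84 (SE 0.91) and 3.33 for Krt86 (SE 0.82). The limma adjusted p was then 0.166, 0.378, 0.177 and 0.256 for these genes, and 0 probes were called. With 2 hair loss samples, leaving out that of Mutant097 brought the Krt82 difference down to 0.11, and leaving out that of Mutant113 brought it to 2.23. Calls over all probes were then 0 and 9, and 11 without Mutant113 replicate 3.

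The samples of each title number were then taken apart. Normal skin of Mutant097 and normal skin of Mutant113 did not overlap for any member. Groups this small can separate without a difference, and the share of all probes without overlap was not counted. The fit by number took its spread from the 3 pairs of normal skin samples (3 residual degrees of freedom). Each number's lone hair loss sample was assumed to vary like them. In Mutant097, hair loss skin exceeded both normal skin samples for every member, and the share of all probes that did so was not counted. Krt81 was higher by 4.43 (SE 0.28, limma adjusted p = 0.0271), or 21.6-fold, and Krt82 by 2.80 (SE 0.30, limma adjusted p = 0.0365), or 6.97-fold, and both were called. The spread of hair loss skin itself was not measured in this number. Krt84 was higher by 5.43 (SE 1.18, limma adjusted p = 0.178) and Krt86 by 4.03 (SE 0.97, limma adjusted p = 0.211), which did not pass. Over all probes 191 were called (0.628%), of which 173 were higher (0.569% of those tested). These 3 samples shared a slide row. The Krt81 call was lost without normal skin replicate 1, 3 or 4, at adjusted p from 0.0671 to 0.128, and that of Krt82 with each normal skin or wild type sample left out, at 0.0587 to 0.143.

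In Mutant113 the same differences were negative, with intervals that included 0. Hair loss skin was below both normal skin samples for Krt81, Krt82 and Krt86, and between them for Krt84. The differences were -0.48 for Krt81 (95% interval -1.17 to 0.21), -0.45 for Krt82 (-1.20 to 0.29), -0.81 for Krt84 (-3.76 to 2.13) and -0.41 for Krt86 (-2.85 to 2.02), each with a limma adjusted p of 1. Of all probes, 1 was called (0.00329%). The hair loss sample of Mutant113 was in slide row 1 and its normal skin in row 2, so hair loss and row cannot be told apart here.

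The difference between the 2 hair loss effects was tested directly, and it carries the same row difference through Mutant113. It was 4.91 for Krt81 (SE 0.39, limma adjusted p = 0.0714), 3.26 for Krt82 (SE 0.42, limma adjusted p = 0.0937), 6.25 for Krt84 (SE 1.67, limma adjusted p = 0.365) and 4.45 for Krt86 (SE 1.38, limma adjusted p = 0.421). No probe of any gene was called by limma (0%), although 2889 (9.50%) had an unadjusted p under 0.05. With normexp background correction, an alternative added after the data were seen, all 4 members passed, with differences of 4.70, 2.81, 4.68 and 4.44 for Krt81, Krt82, Krt84 and Krt86 and adjusted p from 0.000468 to 0.0169, among 287 probes called (0.944%). That setting used the median spot intensity and an offset of 50 in place of the processed signal, and which of these changes moved the calls was not tested.

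**Figure D2:**
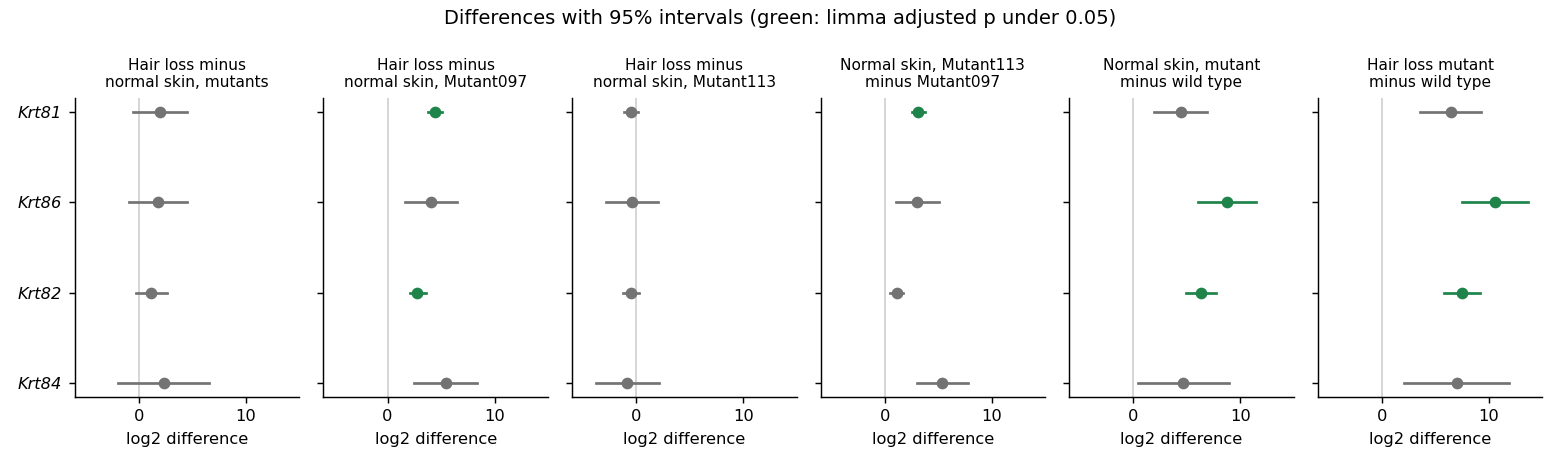
Log2 differences (horizontal axis) with 95% intervals from limma for the 4 members in 6 comparisons, green where the adjusted p was under 0.05. Krt81 and Krt82 are green for hair loss against normal skin in Mutant097, at 4.43 and 2.80, and all 4 members sit just below 0 in Mutant113.

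For Krt81, Krt84 and Krt86 much of the contrast between the numbers lay in normal skin, while for Krt82 more of it lay between the hair loss samples. Normal skin of Mutant113 exceeded that of Mutant097 by 3.15 for Krt81 (SE 0.23, limma adjusted p = 0.0229), or 8.90-fold, and this was called among 81 probes (0.266%; 48 higher, 0.158%). The difference was 3.05 for Krt86 (SE 0.80, limma adjusted p = 0.196), 1.14 for Krt82 (SE 0.24, limma adjusted p = 0.149) and 5.38 for Krt84 (SE 0.96, limma adjusted p = 0.107), none of which passed, and for Krt87 it was 3.28 (SE 0.32, limma adjusted p = 0.0435). The Krt81 call was lost without any 1 of the 4 normal skin samples, at adjusted p from 0.0524 to 0.188. The normal skin of Mutant097 lay in slide row 1 and that of Mutant113 in row 2, so number and row cannot be told apart here. Between the hair loss samples, which shared a row, Mutant097 was higher by 1.76 for Krt81, 2.12 for Krt82, 0.87 for Krt84 and 1.39 for Krt86, with limma adjusted p from 0.180 to 0.853 and 9 probes called (0.0296%).

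Normal skin of each number was also set against the wild type. Normal skin of Mutant113 shared slide row 2 with the wild type, while that of Mutant097 lay in row 1. Genotype, title number and row cannot be told apart for Mutant097, nor genotype and number for Mutant113. In Mutant113, all 4 members rose: Krt81 by 6.02 (limma adjusted p = 0.000531), Krt82 by 6.88 (0.000498), Krt84 by 7.36 (0.0237) and Krt86 by 10.30 (0.00407), among 991 probes called (3.26%; 538 higher, 1.77%). In Mutant097, 3 of the 4 rose: Krt81 by 2.87 (limma adjusted p = 0.00971), Krt82 by 5.75 (0.00264) and Krt86 by 7.25 (0.0291), among 304 probes called (0.999%; 238 higher, 0.782%). Krt84 differed there by 1.98 (SE 0.96, 95% interval -0.42 to 4.39, limma adjusted p = 0.311). Krt82 and Krt84 were not well above background in the wild type. Against it, the bounds were at least 25.9-fold for Krt82 and 3.24-fold for Krt84 in Mutant097. In Mutant113 they were at least 56.9-fold for Krt82 and 135-fold for Krt84. For these comparisons the fit by number was not repeated with alternative settings or with samples left out. The order of the samples by the mean of the 4 members was 5.92 in hair loss skin of Mutant097, 5.31 and 4.55 in normal skin of Mutant113, 4.39 in hair loss skin of Mutant113, 2.18 and 1.32 in normal skin of Mutant097, and -2.33 and -3.09 in the wild type. In that order, hair loss skin of Mutant113 did not differ from its normal skin beyond the spread for any member, and hair loss skin of Mutant097 was not tested against normal skin of Mutant113.

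Within each array, a member's value minus the mean of the 4 members shows how the members moved relative to each other. Krt86 kept a nearly constant distance above that mean in the mutants, 2.99 to 3.26, and Krt81 ranged from 0.34 to 0.86. These distances sum to 0 in an array, and Krt82 and Krt84 lay on opposite sides between the numbers: Krt82 was at 0.14 and -1.0 for Mutant097 normal skin, against -2.61 and -2.33 for Mutant113, while Krt84 was at -4.26 and -2.60 in the former and at -0.78 and -1.67 in the second. Hair loss skin was at -1.80 and -2.39 for Krt82 and at -2.17 and -1.5 for Krt84. Between hair loss and normal skin of the mutants, this distance differed by 0.16 for Krt81, -0.64 for Krt82, 0.49 for Krt84 and -0.01 for Krt86. The two-sided exact permutation p over 15 assignments was 0.667, 0.667, 0.800 and 0.800 for the 4 genes, and 0.133 is the smallest p this design allows. The sign for Krt84 and Krt86 was opposite with normexp, at -0.01 and 0.22.

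Likeness between genes was measured as the root mean square distance between log2 profiles, each centred on its own mean. Over the 6 mutant arrays, Krt81 and Krt86 were nearest to each other (0.21), Krt82 was at 0.93 from both, Krt84 was at 1.2 from Krt81 and 1.15 from Krt86, and Krt82 and Krt84 were farthest apart (2.05). Over all 8 arrays the distance of Krt81 from Krt86 was 1.96 and from Krt82 1.07, but these distances include wild type values not well above background, in both samples for Krt82 and Krt84 and in 1 for Krt86. Over the 8 arrays, among 13009 other genes well above background on all 6 mutant arrays, the median distance to the mean of the 4 members was 3.23. The 5 nearest were Krtap5-1 (0.16), Krtap9-1 (0.31), Krtap1-4 (0.34), Krt31 (0.37) and Mecom (0.39). Of these, 3 are keratin-associated proteins, the matrix in which shaft keratins are embedded, Krt31 is a type I cortex keratin, and Mecom is a zinc finger transcription factor. Krt86 was nearest to Krtap8-1 (0.28), Krtap5-5 (0.32) and Krtap13-1 (0.32). The nearest to Krt82 were Vsig8 (0.35), a protein known from the hair shaft, Prr9 (0.42) and Ly6g6d (0.45). Krt81 was nearest to the probes named Vmn1r52 (0.21), Gm11937 (0.25) and Gm3238 (0.26), and Krt84 to Sprr2h (0.67), Krtap5-4 (0.76) and Krtap7-1 (0.91), so the nearest gene to Krt84 lay farther off than those of the other members. Over the 6 mutant arrays, where the median distance was 1.69, the genes nearest to the mean of the members were Krtap3-1 (0.11), the probe named Vmn1r52 (0.12), Krt34 (0.12), Gm11938 (0.13) and Krtap4-7 (0.14). The 5 genes named over 8 arrays were then at distances of 0.17 to 0.43. Krt81 was nearest there to Krt87 (0.06), Krt86 to Krt34 (0.08), Krt82 to Vsig8 (0.11) and Krt84 to Olfr1134 (0.48). Krt81, Krt86 and Krt87 are close copies, and their probes may detect more than 1 of these transcripts. Their distances from each other may therefore not be those of separate genes.

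**Figure D3:**
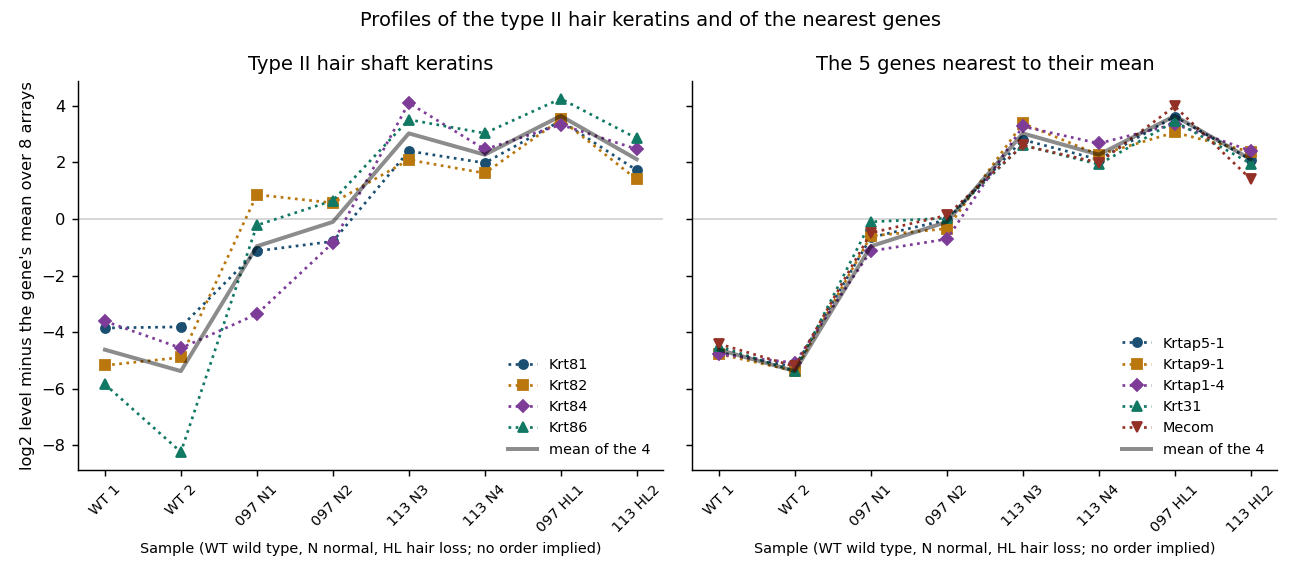
Log2 level minus the gene's mean over 8 arrays (vertical axis) by sample, for the 4 members on the left and for the 5 genes nearest to their mean on the right, with the mean of the 4 in grey. The samples have no order along the line. Krtap5-1 follows the grey line at a distance of 0.16, and on the left Krt84 lies lowest and Krt82 highest in Mutant097 replicate 1, at -3.36 and 0.86.

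The type I hair shaft keratins, the acidic partners of the members, were followed over the same samples. In normal skin of the mutants against the wild type, 7 of 9 rose, with a median difference of 6.06, beside 5.49 for the 4 members and -0.04 over all probes. With normexp 5 of 9 were called, with a median of 5.18. Krt34, Krt33a and Krt35 rose by 10.69, 9.94 and 9.33 (limma adjusted p = 0.0109, 0.0107 and 0.00371) and Krt31 by 6.06 (0.0273). Neither wild type sample was well above background for Krt34 and Krt33a, which were at least 480-fold and 685-fold higher, and only 1 was for Krt35. Hair loss skin against the wild type gave 8 of 9 called higher with a median of 7.64, and hair loss against normal skin of the mutants gave 0 of 9 with a median of 1.59, beside 1.89 for the members. In Mutant097, hair loss skin was higher than normal skin for all 9, with a median of 3.48, and Krt34 and Krt39 were called (4.17 and 4.56, limma adjusted p = 0.0276 and 0.0391). Krt39 was not well above background in normal skin of Mutant097. In Mutant113 all 9 were lower, between -0.61 and -0.17, and 0 were called. The partners were not alike between the numbers in normal skin: Krt34 was higher by 3.08 in Mutant113 (limma adjusted p = 0.0435), while Krt35, an early keratin of the matrix, differed by 0.32 (0.788).

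**Figure D4:**
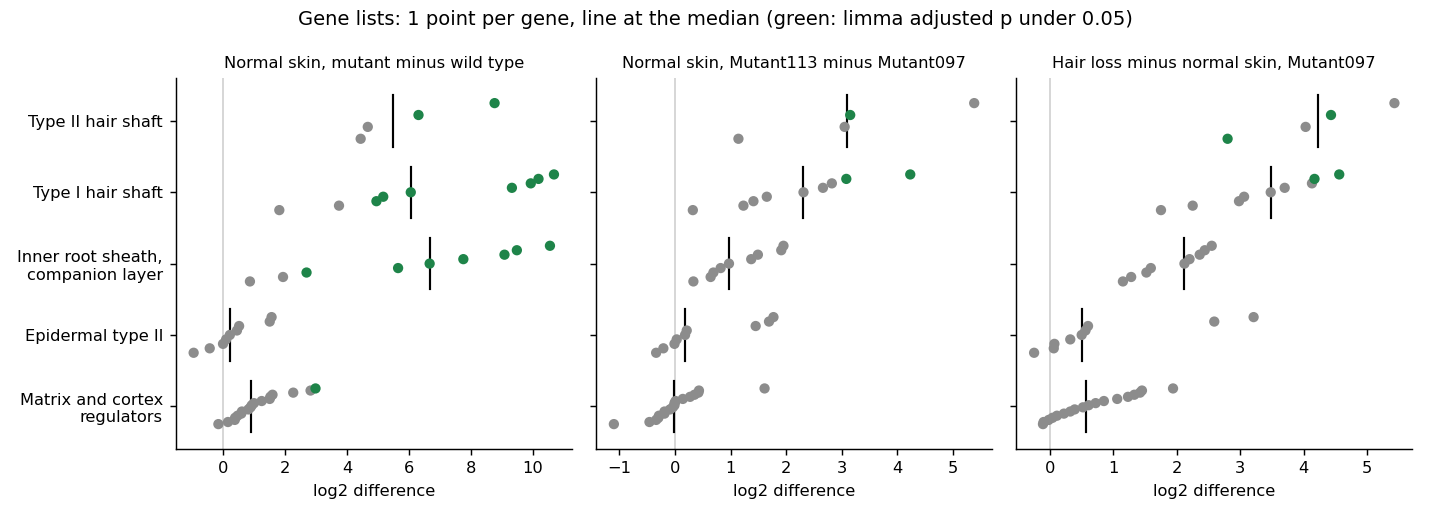
Log2 differences (horizontal axis) in 3 comparisons for 5 gene lists, 1 point per gene, with a line at the list's median and green where the limma adjusted p was under 0.05. In normal skin of the mutants against the wild type the shaft keratin lists have medians of 5.49 and 6.06 and the epidermal type II keratins 0.21.

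Keratins of the inner root sheath and companion layer, which line the channel of the growing shaft, also rose in mutant normal skin: 7 of 9 were called, with a median of 6.67. Krt25, Krt27, Krt71 and Krt28 were higher by 10.56, 9.49, 9.09 and 5.65 (limma adjusted p = 0.0107, 0.00724, 0.00761 and 0.0160). Only 1 of 2 wild type samples was well above background for Krt25 and for Krt27. With normexp 5 of 9 were called, with a median of 5.31. Between the numbers in normal skin this list had a median of 0.97 with 0 of 9 called, beside 3.10 with 1 of 4 called for the members and 2.31 with 2 of 9 for type I. For hair loss against normal skin in Mutant097 it had a median of 2.12 with 0 of 9 called, beside 4.23 with 2 of 4 for the members and -0.03 over all probes. Whether the lists differ from each other was not tested. The type II keratins of the epidermis, which share the gene cluster, had a median of 0.21 in mutant normal skin against the wild type and 0 of 9 called. Krt5, the basal keratin, differed by 0.09 (limma adjusted p = 0.825).

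The members' position in the type II cluster can be followed gene by gene, without comparing levels. In gene order, the differences of mutant normal skin from the wild type were 0.55 for Krt7, 8.41 for Krt87, 4.44 for Krt81, 8.77 for Krt86, 4.67 for Krt84, 6.31 for Krt82, 2.79 for Krt90 and 2.69 for Krt75, the last with a limma adjusted p of 0.0435. Krt7, Krt87, Krt84, Krt82 and Krt90 were not well above background in the wild type, so their differences are taken from background values there. With normexp the differences were -0.10 for Krt7, 4.17 for Krt87, 3.74 for Krt81, 6.85 for Krt86, 2.44 for Krt84, 2.84 for Krt82, 0.46 for Krt90 and 1.62 for Krt75, and of these Krt86 and Krt82 were called. Beyond Krt5, at 0.09, the inner root sheath keratins Krt71 and Krt73 were at 9.09 and 6.67. Krt81, Krt83, Krt86 and Krt87 are close copies of each other, and the gene table lists Krt83 as an older name of Krt87. Probe sequences were not used here, so these probes may detect more than 1 of these transcripts and their values are uncertain as to the single gene.

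**Figure D5:**
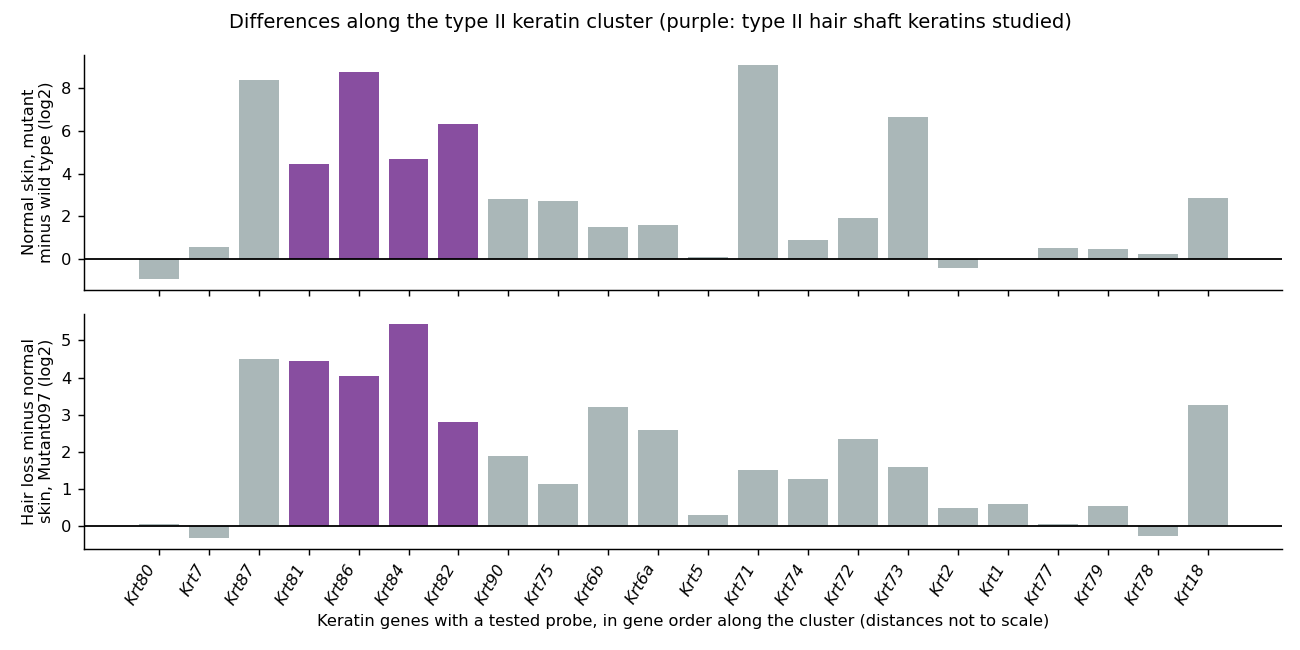
Log2 differences (vertical axes) of keratin genes with a tested probe in gene order along the type II cluster, with distances not to scale and members in purple, for mutant normal skin against the wild type (top) and for hair loss against normal skin in Mutant097 (bottom). From Krt87 to Krt82 the bars in the top panel run from 4.44 to 8.77, between 0.55 at Krt7 and 2.79 at Krt90, with Krt7, Krt87, Krt84, Krt82 and Krt90 at background in the wild type.

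Regulators of the hair matrix and cortex were taken from a list of 19 genes, of which 18 were tested. In mutant normal skin against the wild type 1 rose: Hoxc13, the homeobox factor known to act on hair keratin genes, by 2.98 (limma adjusted p = 0.0475). The median was 0.90. In hair loss skin against the wild type the called genes were Hoxc13 (3.63), Msx2 (3.34) and Vdr (1.51), with limma adjusted p of 0.0310, 0.0401 and 0.0499. Among the mutants 0 of 18 were called, and in normal skin of Mutant113 against Mutant097 the median was -0.03. Hoxc13 differed there by 0.42, Msx2 by -0.04 and Lef1 by -0.34, with limma adjusted p of 0.736, 0.979 and 0.836, beside 3.15 for Krt81. Foxn1, the factor missing in nude mice, differed by 1.61 (limma adjusted p = 0.176).

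Of 11 partner proteins of the cuticle and cortex, 3 rose in mutant normal skin. These were Padi3, a peptidylarginine deiminase (8.06, limma adjusted p = 0.00761, not well above background in the wild type and at least 192-fold higher), the cuticle calcium-binding protein S100a3 (7.52, 0.00695) and Crym, or mu-crystallin (4.94, 0.0337). The same 3 were called in hair loss skin against the wild type, at 9.21, 8.59 and 5.97. In normal skin of Mutant113 against Mutant097, 0 of 11 were called and the median was 1.05.

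Markers of other cells moved with these comparisons in part. Levels here are summed over a list on the linear scale, as multiples of the array's 75th percentile. Markers listed for proliferating hair matrix cells (5 of 6 tested, 3 well above background on all arrays) are mostly cell cycle genes. Their sum is therefore not specific to the matrix. It was 4.04 to 5.62 in the wild type, 12.8 to 37.6 in mutant normal skin and 18.9 to 32.8 in hair loss skin. The sums were 37.6 and 20.9 in normal skin of Mutant097 and 17.9 and 12.8 in that of Mutant113, the reverse of the members' order. Melanocyte markers (5 of 5 tested) summed to 20.6 to 24.2 in the wild type, 12.6 to 78.4 in mutant normal skin and 32.5 to 66.4 in hair loss skin. Of these 5 genes 4 were higher in mutant normal skin than in the wild type, with a median difference of 2.36 and 0 called. Pmel, Tyrp1 and Dct were higher in every mutant sample than in both wild type samples, and Mlana was lower, at 1.05 to 3.82 against 4.17 and 4.17. Skeletal muscle markers (8 of 8 tested) summed to 1340 to 1470 in the wild type, 537 to 1360 in mutant normal skin and 224 to 578 in hair loss skin, with Mylpf and Myl1 called lower in hair loss skin than in the wild type. Fibroblast markers (4 of 5 tested) summed to 1310 to 1860, 463 to 1290 and 628 to 871 in the same groups, and to 1100 and 1290 in normal skin of Mutant097 against 463 and 577 in that of Mutant113. Leukocyte markers (6 of 9 tested) summed to 30.7 to 46.8 in the wild type, 21.9 to 30.9 in mutant normal skin and 25.1 to 28.4 in hair loss skin. Epidermal markers were between 1500 and 1990 in every sample, adipocyte markers (6 of 6 tested) between 305 and 452, and sebaceous gland markers (6 of 6 tested) between 103 and 154. The part of these cells in the keratin differences was not tested.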

How the data were processed

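Skin RNA was hybridised in 1 colour (Cy3) to 8 arrays. Per the file headers, Agilent Feature Extraction 11.5.1.1 gave each spot an intensity, subtracted of background and detrended across the array, with a surrogate for low values, and marks for spots well above background. The deposited matrix holds log2 values of the authors, which matched the log2 of that intensity to within 2.43e-06 after 1 shift per array. The array design names mm9.

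Here, log2 intensities were averaged over the spots of a probe and scaled to the 75th percentile of each array, without control spots and spots marked as outliers (118 to 210 per array). A probe was tested if it was well above background on at least 2 of 8 arrays, which left 30417 of 55603 probes. Of these, 19195 had a gene symbol, found by RefSeq accession in a table of mouse genes. No coordinates of that table are given, and promoters are from RefSeq on GRCm38.p6.

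Two-sided limma tests (version 3.58.1, R 4.3.3) used a fit of 3 groups to all 8 arrays (5 residual degrees of freedom) and a fit of groups by title number. In each comparison, Benjamini-Hochberg adjustment ran over all probes tested. Differences between members were tested by exact permutation. The fit of 3 groups was tested on simulated data with independent noise per sample, for mutant normal skin against wild type only. The fit by title number was not tested in this way. Precision is limited by the number of arrays. The members and gene lists were chosen with earlier results of these data known. Named genes were all members, the genes nearest to them in profile (5 for their mean, 3 for each member) and at most 4 genes per list, those of the highest mean level. Hoxc13, Msx2, Lef1, Foxn1, Padi3, Krt39, Krt73, Krt90, Krt75, Mylpf, Myl1, the melanocyte genes and the genes nearest over 6 arrays were named after their values were seen. Alternatives covered background correction (normexp with an offset of 50, on the median spot intensity because the files lack the mean), quantile and median scaling, the deposited matrix, filters, the samples fitted, slide row and title number as blocks, and each sample left out. Alternatives for the fit by title number, distances over the 6 mutant arrays alone and the walk along the gene cluster were added after the data were seen.

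The title number was tried as a replicate block. Its pairing was checked by the correlation of deviations from group means, which for the hair loss and normal skin samples of 1 number was 0.0189 to 0.209, and the labels do not say what the number marks.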

Additional observations from a re-analysis of the deposited data

Results flagged for a closer look

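The hair loss difference was positive in Mutant097 and negative in Mutant113 for each of the 4 members, and every Mutant113 interval included 0. For 3 members the samples also lay on opposite sides. Krt81 in hair loss skin was above both normal skin samples of Mutant097 and below both of Mutant113, and the difference between the effects, Mutant097 minus Mutant113, was 4.91 (limma adjusted p = 0.0714, with 1 hair loss sample per number and the Mutant113 samples in 2 slide rows). Krt82 and Krt86 lay the same way, and their difference between the effects was 3.26 for Krt82 (limma adjusted p = 0.0937) and 4.45 for Krt86 (limma adjusted p = 0.421). These p-values missed the threshold, and with normexp background correction all 3 passed it. No sample of mutant normal skin stood apart from the other 3 for any member by Dixon's test. That test looks for 1 sample at an end, so it cannot see the split of these samples into pairs by title number.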

How the results depend on the processing

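For the 4 members, direction was kept in every alternative of the 3 group comparisons, and the call in most. With normexp, Krt81 in hair loss against wild type passed (5.68). It also passed with median scaling (6.64), with the filter requiring all arrays of a group (6.42), and with only the 2 groups fitted (6.42), where Krt84 passed too (6.98). With slide row as a block, Krt81 and Krt84 passed in mutant normal skin against wild type (6.02 and 7.36). They also passed in hair loss against wild type (9.57 and 12.36). Only mutant normal skin lay in both rows, so the row term was the difference between Mutant113 and Mutant097 in that skin. The first values are thus those of Mutant113 normal skin against wild type. The second add hair loss against Mutant097 normal skin to them. This block therefore cannot correct for row apart from number. With the samples of a number averaged into 1, Krt82 and Krt86 did not pass in mutant normal skin (6.31 and 8.77) or hair loss skin (7.49 and 10.58) against wild type. The probes called were 332 and 795 in these comparisons with median scaling, 128 and 183 without a filter, 0 and 0 with averaged numbers and 856 and 1332 with the row block. For hair loss against wild type the count was 839 with the stricter filter and 706 with only the 2 groups. Leaving out 1 sample gave 0 to 11 calls for hair loss against normal skin, 0 to 191 for mutant normal skin against wild type and 0 to 708 for hair loss against wild type. The differences then ranged from 6.05 to 6.55 for Krt82 and from 7.58 to 9.97 for Krt86 in mutant normal skin against wild type. For hair loss against wild type they ranged from 5.54 to 7.30 for Krt81, 6.43 to 8.55 for Krt82 and 9.39 to 11.78 for Krt86. In the fit by number, normexp made Krt84 (3.96) and Krt86 (4.07) pass for hair loss in Mutant097, Krt84 (4.10) and Krt86 (3.15) for normal skin of Mutant113 against Mutant097, and the difference between effects for Krt81, Krt82, Krt84 and Krt86 (4.70, 2.81, 4.68 and 4.44). With quantile normalization Krt82 did not pass in Mutant097 (2.69). Leaving out 1 sample gave 4.26 to 4.60 for Krt81 and 2.66 to 2.94 for Krt82 in Mutant097, 2.94 to 3.36 for Krt81 between the normal skins, and -1.64 to 0.01 for Krt84 in Mutant113, the last without replicate 3. The distance from the members' mean changed sign with normexp for Krt84 (-0.01) and Krt86 (0.22), and ranged from -0.15 to 1.01 and from -0.08 to 0.06 with 1 sample left out. With title number as a replicate block, 0 probes were called for hair loss against normal skin, and the members kept their differences (1.98, 1.17, 2.31 and 1.81 for Krt81, Krt82, Krt84 and Krt86) at limma adjusted p from 0.721 to 0.734. The cause of these shifts was not tested. Levels at background in the wild type limit every fold against it.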
